A study of Mus musculus with 18 samples.

Results

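The circadian clock genes described here are Arntl, Clock, Npas2, Cry1, Per1, Per2, Per3, Nr1d1, Nr1d2 and Dbp. They were taken by symbol from the count tables, which hold 25124 genes, and all 10 were present in all 3 tables. They were followed in 18 bulk RNA-seq libraries of inguinal white fat (iWAT), epididymal white fat (eWAT) and brown fat (BAT) from wildtype (WT) mice and from mice that lack caspase-6 in the whole body (C6KO), an executioner protease of cell death. Each of the 6 groups held 3 libraries, prepared as biological replicates according to the labels. All mice were males on the C57BL/6J background, the genotypes were bred from heterozygous parents, and every group ate a 60% high fat diet (HFD) for 12 weeks, started between 10 and 14 weeks of age. The knockout is constitutive and so present in every cell type of a depot, and no chow-fed library was analysed here. Mice were housed on a light/dark cycle with free feeding. A fast before tissue was taken is stated for other cohorts of the study, and whether the mice of these libraries were fasted was not given in the sources used here. The hour of day at which tissue was taken, and whether same-numbered libraries of different depots came from the same mouse, were not given in the sources used here.

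The mammalian clock is a loop of transcription factors that runs in almost every cell, adipocytes included. Arntl (BMAL1) pairs with Clock or its relative Npas2 and activates genes that carry an E-box, among them the Per and Cry repressors, which then inhibit the pair, the nuclear receptors Nr1d1 and Nr1d2 (REV-ERB alpha and beta), which repress Arntl, Npas2 and Clock, and Dbp, an output factor that binds D-boxes. In peripheral tissues of mice Arntl and Npas2 are therefore high at the opposite time of day to Dbp and the Per genes, and Cry1 reaches its peak later than the other repressors.

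The libraries of iWAT held 16506034 to 19043523 counted reads each, those of eWAT 16717201 to 19139694 and those of BAT 7803108 to 12428683, so clock genes with few reads were measured least precisely in BAT. Casp6 did not overlap between the genotypes of any depot, with 99 to 141 counts against 289 to 342 in iWAT, 74 to 124 against 322 to 422 in eWAT and 26 to 71 against 127 to 145 in BAT for C6KO against WT. By edgeR, Casp6 reached an adjusted p below 0.05 in eWAT only (log2 difference -1.85, edgeR adjusted p = 0.0132). It did not in iWAT (-1.51, edgeR adjusted p = 0.0751) or BAT (-1.50, edgeR adjusted p = 0.0671). The counts cover the whole transcript, so the reads left in C6KO could not be placed inside or outside the deleted part. Summed CPM (read counts scaled for library size) of 6 brown adipocyte markers were 6754 to 16739 in BAT and at most 64.8 elsewhere, and those of 6 adipocyte markers were at least 8519 in every library. Of the BAT libraries, WT 2 (34944 CPM), C6KO 3 (7790 CPM) and C6KO 1 (5734 CPM) held the most RNA of 6 skeletal muscle markers, against 46.0 to 1630 CPM in the other BAT libraries, and results on BAT are given also without these 3. Fewer cells of a type and less RNA per cell cannot be told apart in such bulk samples.

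Per kilobase of transcript, the clock genes spanned a wide range of levels and kept much the same order in the 3 depots. Nr1d1 and Dbp were the most abundant, at 97.9 ± 21.7 and 73.8 ± 27.2 CPM per kb in iWAT, at 46.1 ± 3.66 and 49.3 ± 17.4 CPM per kb in eWAT, and at 90.9 ± 21.8 and 91.4 ± 30.2 CPM per kb in BAT (mean ± SD, n = 6 libraries per depot, both genotypes). The libraries of the 2 genes overlapped in each depot, so their order is not set. Per1, Nr1d2, Per3, Per2, Clock and Cry1 lay between 2.99 and 39.9 CPM per kb on average. Arntl stood at 2.26 ± 1.29 in iWAT, 3.51 ± 1.22 in eWAT and 2.17 ± 1.22 CPM per kb in BAT, and Npas2 was the least abundant in every depot, with 0.251 ± 0.193, 1.30 ± 0.359 and 0.105 ± 0.0630 CPM per kb, its libraries below all those of the next gene. For 2 genes the tables count different transcripts, Clock in BAT (9762 against 9719 bases) and Per3 in eWAT (6024 against 5976 bases), so their differences between depots are uncertain to that extent.

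Among the activators, Arntl differed widely between replicates of the same group. In iWAT it stood at 10.1, 6.84 and 2.75 CPM in WT libraries 1, 2 and 3 and at 11.3, 2.58 and 5.10 CPM in the C6KO libraries. In eWAT the WT libraries had 10.8, 11.5 and 6.55 CPM and the C6KO libraries 15.9, 7.89 and 7.55 CPM. In BAT the WT libraries had 11.1, 8.79 and 5.51 CPM and the C6KO libraries 6.90, 1.53 and 3.43 CPM, the lowest of which rests on 17 counts. The highest library was 3.67 times the lowest within WT iWAT and 4.52 times the lowest within C6KO BAT, and the genotypes overlapped in every depot.

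Npas2, the alternative partner of Arntl, was high in eWAT and scarce elsewhere. In eWAT it had 6.06, 5.06 and 5.70 CPM in WT and 7.86, 3.77 and 4.06 CPM in C6KO. In iWAT it had 2.37, 1.19 and 0.616 CPM in WT and 1.46, 0.274 and 0.344 CPM in C6KO, which is 5 to 40 counts. In BAT no library had more than 5 counts, and C6KO 2 had 0, which allows up to 0.27 CPM at 3 counts (counting error only). All 6 eWAT libraries lay above all 12 others. Clock, the usual partner, varied least of the 10 genes within groups: it ran from 61.8 to 85.8 CPM in iWAT, 60.9 to 93.9 CPM in eWAT and 64.4 to 123 CPM in BAT.

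Per2, a repressor that also responds to feeding and hormonal cues, varied in the other sense from Arntl. It had 31.97, 70.0 and 81.1 CPM in WT iWAT and 51.3, 120 and 75.5 CPM in C6KO iWAT. In eWAT it had 43.7, 30.5 and 47.9 CPM in WT and 27.6, 40.4 and 49.8 CPM in C6KO. In BAT it had 30.1, 44.1 and 99.9 CPM in WT and 71.1, 245 and 112 CPM in C6KO. BAT C6KO 2, the library with the least Arntl, thus held the most Per2 of all 18. Per3, the least essential of the Per proteins to the rhythm, ran from 87.2 to 152 CPM in iWAT, 42.3 to 93.7 CPM in eWAT and 79.3 to 196 CPM in BAT. Cry1, the strong repressor, ran from 10.1 to 18.4 CPM in iWAT, 6.44 to 12.4 CPM in eWAT and 9.84 to 20.9 CPM in BAT.

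Per1, which is also induced acutely by glucocorticoids and cAMP signalling, was even within iWAT (127 to 188 CPM) and spread over 81.7 to 149 CPM in eWAT. In BAT it had 20.6, 111 and 168 CPM in WT and 126, 171 and 129 CPM in C6KO. BAT WT 1 stood far below the other 17 libraries, with 141 counts against 987 or more in the rest of BAT. It was also the BAT library with the fewest total counts and the least muscle marker RNA. Its sum of 8 immediate early genes (626 CPM) was the highest in BAT, level with that of WT 2 (623 CPM). The part of any of these in its Per1 level was not tested.

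The nuclear receptors were the steadiest of the rhythmic members. Nr1d1 had 271, 246 and 208 CPM in WT iWAT and 285, 378 and 231 CPM in C6KO iWAT. In eWAT it had 123, 117 and 125 CPM in WT and 145, 131 and 121 CPM in C6KO, all 6 below every iWAT and BAT library. In BAT it had 221, 276 and 240 CPM in WT and 261, 342 and 162 CPM in C6KO. Nr1d2, its paralog, ran from 84.7 to 132 CPM in iWAT, 80.9 to 120 CPM in eWAT and 148 to 244 CPM in BAT, and BAT lay wholly above the white depots.

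Dbp, the output factor, was low where Arntl was high. It had 92.1, 130 and 135 CPM in WT iWAT and 58.5, 193 and 131 CPM in C6KO iWAT. In eWAT it had 96.3, 79.7 and 124 CPM in WT and 34.5, 83.3 and 77.0 CPM in C6KO. In BAT it had 121, 114 and 152 CPM in WT and 143, 252 and 136 CPM in C6KO. The extremes of Dbp, eWAT C6KO 1 and BAT C6KO 2, were the extremes of Arntl in the opposite order.

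**Figure D1:**
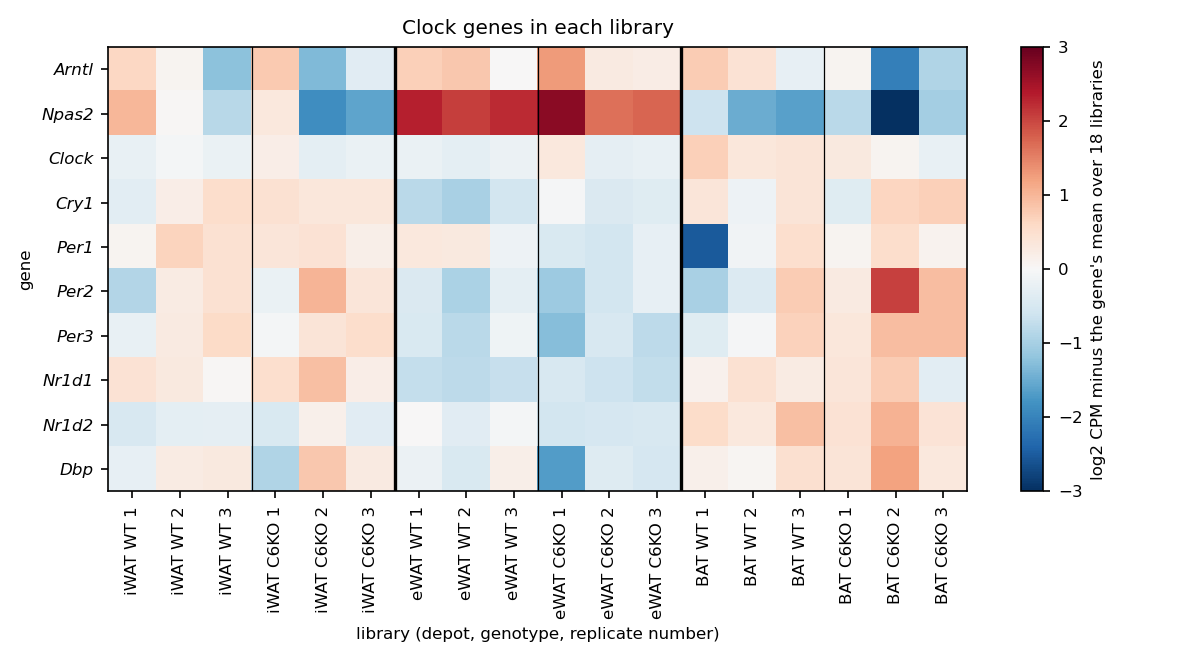
Levels of the 10 clock genes (rows) in the 18 libraries (columns, by depot, genotype and replicate number), as log2 CPM minus each gene's mean over all 18 libraries. The colour scale ends at 3 in both directions, thick lines part the depots and thin lines the genotypes. Npas2 is red throughout eWAT, Per1 is at its lowest in BAT WT 1, and columns with blue Arntl, such as BAT C6KO 2, are red for Per2 and Dbp.

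The clock genes differed more between replicates of a group than most genes did. Pooled over the 6 groups, the within-group SD of log2 CPM was 1.05 for Npas2, 0.81 for Arntl, 0.69 for Per1, 0.68 for Per2, 0.54 for Dbp, 0.40 for Per3 and 0.35 for Cry1. The median over 15866 genes was 0.28, and Nr1d1 (0.29), Nr1d2 (0.25) and Clock (0.22) lay around it. The value for Arntl was above that of 86.3% of genes and that for Npas2 above that of 92.5%, although genes with few reads, as both are, also carry more counting error.

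This spread had a common direction. Over the 18 libraries, deviations from the group mean in log2 CPM were opposed for Arntl and Per2 (Pearson r = -0.89, Spearman rho = -0.91), Arntl and Dbp (r = -0.85, rho = -0.85), Arntl and Per3 (r = -0.79, rho = -0.82) and Arntl and Nr1d2 (r = -0.75, rho = -0.71). Arntl and Npas2 deviated together (r = 0.87, rho = 0.86), as did Per2 with Per3 (r = 0.84), Nr1d2 (r = 0.83) and Dbp (r = 0.76). Without the 2 libraries in which Arntl deviated most, r was -0.87 with Per2, -0.87 with Dbp and 0.84 with Npas2. The relation of Arntl to Dbp stood in each depot taken alone, with r = -0.87 in iWAT, -0.96 in eWAT and -0.85 in BAT over 6 libraries each. These are descriptions without a test: 2 genes of a library share its depth and scaling, libraries of different depots may share a mouse, and the deviations of 3 replicates sum to 0.

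Not every member joined. Nr1d1 was nearly unrelated to Arntl (r = -0.14, rho = -0.00), unlike Nr1d2, and Per1 was weakly opposed to it (r = -0.31, rho = -0.40). Cry1, which was grouped with the activators for its late peak, deviated against Arntl (r = -0.49) and with Per2 (r = 0.50). Clock followed Arntl loosely (r = 0.55).

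**Figure D2:**
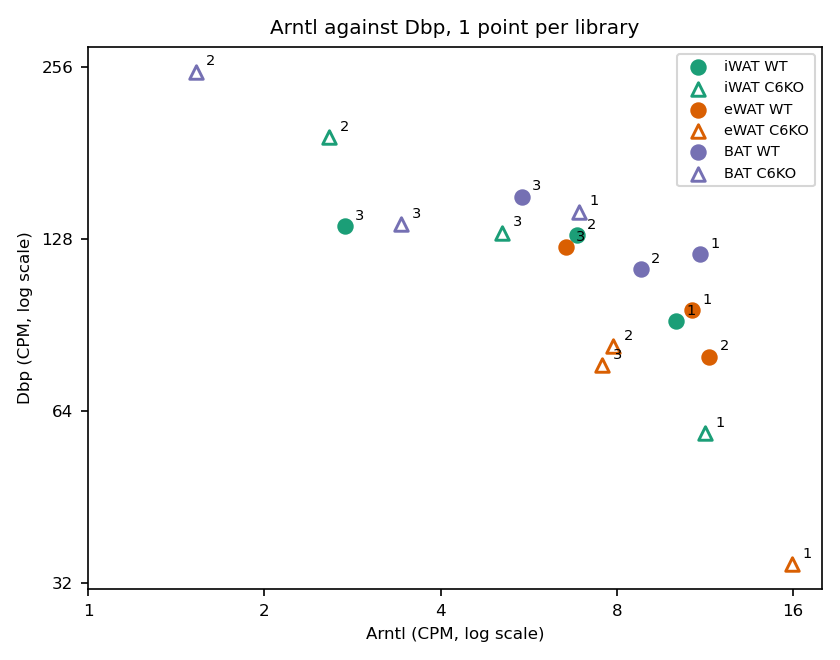
Arntl (x axis) against Dbp (y axis) in CPM, both on log scales, with 1 point per library, coloured by depot, filled for WT and open for C6KO, and numbered by replicate. The points run from eWAT C6KO 1 (15.9 CPM Arntl, 34.5 CPM Dbp) to BAT C6KO 2 (1.53 CPM Arntl, 252 CPM Dbp).

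The ratio of Dbp to Arntl in CPM put this spread on 1 scale. It ran from 2.16 in eWAT C6KO 1 to 158 in BAT C6KO 2. Within single groups it ran from 9.08 to 48.1 in WT iWAT, 5.14 to 73.0 in C6KO iWAT, 6.89 to 18.7 in WT eWAT, 2.16 to 10.5 in C6KO eWAT, 10.8 to 27.3 in WT BAT and 20.5 to 158 in C6KO BAT. The ranges of WT and C6KO overlapped in each depot.

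A contrast of all 10 genes was also taken, as the mean log2 CPM of Arntl, Clock, Npas2 and Cry1 minus that of the other 6, centred on 0 over the 18 libraries. The group means were -0.12 ± 0.60 in WT and -0.49 ± 0.99 in C6KO iWAT, 0.75 ± 0.17 in WT and 1.22 ± 0.67 in C6KO eWAT, and -0.10 ± 0.85 in WT and -1.25 ± 1.07 in C6KO BAT (SD, n = 3). By depot it ran from 0.58 to 1.99 in eWAT, above all iWAT libraries (-1.40 to 0.57) by a narrow margin, while BAT (-2.47 to 0.81) overlapped both. The ratio of Dbp to Arntl overlapped between eWAT and iWAT. Npas2, 1 of the 4 genes on the upper side of the contrast, was itself higher in every eWAT library than in any other. The lowest value, -2.47 in BAT C6KO 2, includes a 0 count of Npas2. The prior count of 1 placed it at a log2 CPM of -3.94, against -0.51 and -0.73 in BAT C6KO 1 and 3. That value and the C6KO BAT mean thus depend in part on the prior count. Of the C6KO libraries, number 1 was the highest and number 2 the lowest in iWAT, eWAT and BAT, although numbers 2 and 3 in eWAT differed only as 0.82 and 0.84. Of the WT libraries, number 3 was the lowest in the 3 depots, and the highest was number 1 in iWAT and BAT and number 2 in eWAT. No label says what a number stands for.

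**Figure D3:**
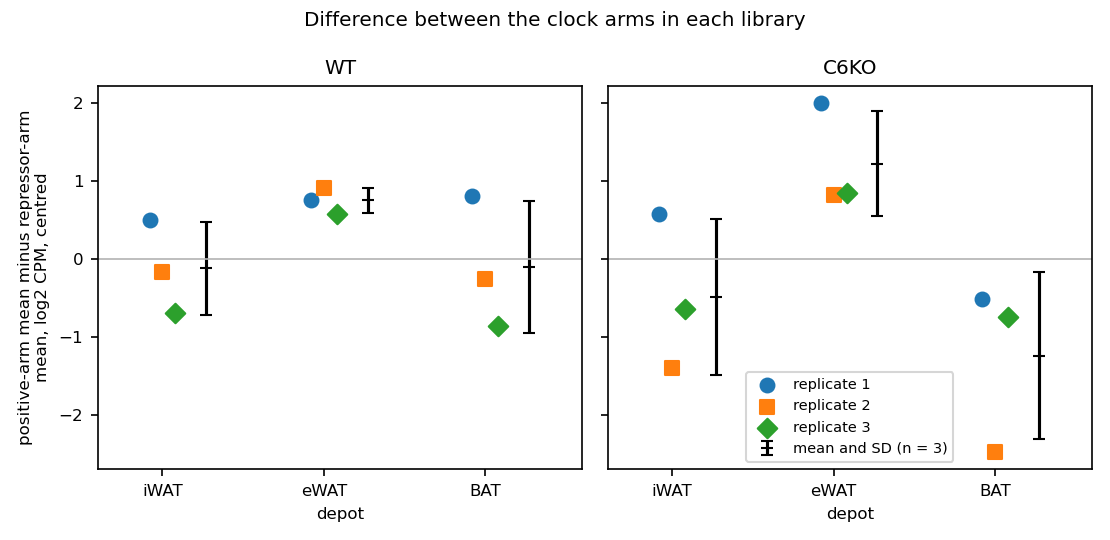
Mean log2 CPM of Arntl, Clock, Npas2 and Cry1 minus that of Per1, Per2, Per3, Nr1d1, Nr1d2 and Dbp (y axis, centred on 0 over 18 libraries) by depot (x axis), for WT (left) and C6KO (right). Symbols stand for replicate numbers and bars for mean and SD of 3 libraries. In C6KO, number 1 lies highest and number 2 lowest in every depot, with numbers 2 and 3 almost level in eWAT. The point of BAT C6KO 2 includes a 0 count of Npas2 and depends in part on the prior count.

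Because several members moved together, the bases before their transcription starts were searched for the elements that clock factors bind. RefSeq windows (GRCm38.p6, 250 bases before to 50 after each start) were at hand for 9 members, 13 windows in all, and Per2 had no entry. The letters searched on both strands were CACGTG (E-box), CACGTT (a weaker E-box variant), TTATGTAA (D-box), TAGGTCA or TGGGTCA (core of the element bound by REV-ERB receptors) and TGACGTCA (cAMP response element). These occur in 7.15%, 4.68%, 0.938%, 6.45% and 1.79% of all 32851 windows of that length. A match was found in windows of 5 members, and for 4 of them it lay before the start. Those 4 are shown because they hold the letters, 5′ to 3′ on the gene's strand, 250 bases up to the start, with matches in capitals.
Cry1, chr10:85185055-85185304, minus strand: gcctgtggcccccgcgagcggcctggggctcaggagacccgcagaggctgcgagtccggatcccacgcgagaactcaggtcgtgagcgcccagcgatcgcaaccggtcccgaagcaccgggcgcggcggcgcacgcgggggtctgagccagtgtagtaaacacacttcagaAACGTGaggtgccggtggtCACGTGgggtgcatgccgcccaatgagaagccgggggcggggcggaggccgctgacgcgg
Per1, chr11:69098699-69098948, plus strand: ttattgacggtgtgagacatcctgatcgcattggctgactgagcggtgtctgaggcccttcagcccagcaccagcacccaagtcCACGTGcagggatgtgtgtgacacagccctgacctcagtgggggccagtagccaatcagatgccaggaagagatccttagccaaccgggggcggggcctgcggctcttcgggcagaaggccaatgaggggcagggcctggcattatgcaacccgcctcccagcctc
Per3, chr4:151044666-151044915, minus strand: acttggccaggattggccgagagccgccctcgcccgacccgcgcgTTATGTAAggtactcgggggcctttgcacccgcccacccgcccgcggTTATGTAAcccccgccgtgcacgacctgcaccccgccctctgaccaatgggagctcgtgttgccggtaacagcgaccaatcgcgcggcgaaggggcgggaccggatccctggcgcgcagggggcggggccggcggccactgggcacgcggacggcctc
Nr1d1, chr11:98775378-98775627, minus strand: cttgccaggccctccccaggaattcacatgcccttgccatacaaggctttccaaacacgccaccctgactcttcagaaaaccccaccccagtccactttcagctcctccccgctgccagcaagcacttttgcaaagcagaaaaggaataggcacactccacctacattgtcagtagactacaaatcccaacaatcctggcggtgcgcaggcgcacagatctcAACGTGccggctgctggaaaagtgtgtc
Cry1 had the E-box 60 bases before its start and the weaker variant, on the opposite strand, at 79 bases. Per1 had the E-box at 166 bases, Nr1d1 had the variant on the opposite strand at 28 bases, and Per3 had the D-box at 205 and again at 158 bases. In Arntl the letters TAGGTCA began at base 31 of the transcript from its second start. No match was found in the windows of Clock, Npas2, Nr1d2 and Dbp, which says only that these letters are not within those bases. The 4 genes shown did not form a group in the expression data: Per3 was opposed to Arntl, whereas Nr1d1 was not.

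Between depots, eWAT differed from iWAT by more Npas2 and by less Nr1d1, Per3 and Cry1. Npas2 was 5.48-fold higher in eWAT (log2 difference 2.45 ± 0.47, SE) with an adjusted p of 0.000414, here and below from edgeR's quasi-likelihood test over 15866 genes with Benjamini-Hochberg adjustment, averaged over the genotypes. Nr1d1 was 2.12-fold lower (-1.08 ± 0.15, adjusted p = 2.39e-05), Per3 1.86-fold lower (-0.89 ± 0.21, adjusted p = 0.00222) and Cry1 1.74-fold lower (-0.80 ± 0.18, adjusted p = 0.00179). Calls required an adjusted p below 0.05 together with a 1.5-fold difference, which makes 1 member higher and 3 lower, 4 of 10, where 31.1% of all genes were called, 17.0% higher and 14.1% lower. Libraries of the depots did not overlap for Npas2 and Nr1d1, 2 of 10 against 26.0% of all genes. Both shares are near the background.

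Per2 and Dbp did not pass in eWAT against iWAT, at -0.82 ± 0.37 (95% interval -1.62 to -0.03, edgeR adjusted p = 0.0808) and -0.61 ± 0.28 (-1.21 to -0.02, edgeR adjusted p = 0.0825). Leaving out single libraries changed this: without iWAT WT 1 Per2 was called (-0.98, edgeR adjusted p = 0.0458), and without iWAT C6KO 1 Dbp was called (-0.79, edgeR adjusted p = 0.0141). DESeq2 also called Dbp (-0.59, adjusted p = 0.0494). Arntl (0.64, interval -0.23 to 1.51), Per1 (-0.49, -1.18 to 0.19), Nr1d2 (-0.05, -0.33 to 0.24) and Clock (-0.01, -0.27 to 0.24) were not called either, the last 2 with narrow intervals. The median log2 difference of the 10 genes was -0.55, beside -0.03 for all genes. Within genotypes, Npas2 and Nr1d1 were called in WT alone (2.01 and -0.99) and in C6KO alone (2.91 and -1.16). Per3 was not called in WT alone (-0.67, edgeR adjusted p = 0.115) nor Cry1 in C6KO alone (-0.65, edgeR adjusted p = 0.0815), while Per1 was called in C6KO alone (-0.72, edgeR adjusted p = 0.00653).

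BAT differed from iWAT chiefly by more Nr1d2. It was 1.87-fold higher (0.90 ± 0.14, edgeR adjusted p = 2.21e-05) and higher in all 6 BAT libraries than in any of iWAT. It was the only member called, 1 of 10, where 43.8% of genes were called, 21.1% of all tested as higher, and 30.4% did not overlap. Clock was higher by 0.39 ± 0.12 (edgeR adjusted p = 0.0101), short of the 1.5-fold minimum and with another transcript counted in BAT. It was called in WT alone (0.65, edgeR adjusted p = 0.0013) and stood at 0.14 in C6KO alone, a difference between genotypes that the interaction term did not call (-0.50, interval -1.01 to 0.02). Npas2, with at most 5 counts in any BAT library, stood at -1.23 ± 0.57 (edgeR adjusted p = 0.0702). It was called when iWAT WT 3 (-1.41, edgeR adjusted p = 0.0435), iWAT C6KO 2 (-1.43, edgeR adjusted p = 0.0386) or iWAT C6KO 3 (-1.40, edgeR adjusted p = 0.0473) was left out, by DESeq2 (-1.26, adjusted p = 0.0394), in WT alone (-1.57, edgeR adjusted p = 0.0353) and without the 3 BAT libraries rich in muscle RNA (-3.98, edgeR adjusted p = 0.0161). The last value rests on a C6KO library with 0 Npas2 counts and depends on how such a count is fitted. The median of the 10 genes was 0.11, beside -0.02 for all genes.

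BAT differed from eWAT in most members, as it did in most genes. Higher in BAT were Per2 (2.28-fold, 1.19 ± 0.37, edgeR adjusted p = 0.0110), Per3 (2.12-fold, 1.09 ± 0.21, edgeR adjusted p = 0.000231), Nr1d1 (1.97-fold, 0.98 ± 0.15, edgeR adjusted p = 2.40e-05), Nr1d2 (1.93-fold, 0.95 ± 0.14, edgeR adjusted p = 8.26e-06), Dbp (1.87-fold, 0.91 ± 0.28, edgeR adjusted p = 0.00958) and Cry1 (1.79-fold, 0.84 ± 0.19, edgeR adjusted p = 0.000724). Lower in BAT was Npas2, 12.9-fold (-3.69 ± 0.55, edgeR adjusted p = 1.28e-05). It had 0 to 5 counts per library in BAT and 77 to 145 in eWAT, so the size of this fold is imprecise. Npas2 passed the filter of this fit through the white depots and failed it in the fit of BAT alone. With Npas2, 7 of 10 members were called, where 54.4% of all genes were called, 26.2% higher and 28.2% lower. Libraries did not overlap for Npas2, Nr1d1 and Nr1d2, 3 of 10 against 45.9% of genes. The median of the 10 was 0.87, beside 0.01 for all genes.

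Part of the difference between BAT and eWAT depended on the genotype analysed. In WT alone Per2 (0.52, edgeR adjusted p = 0.401), Per3 (0.61, edgeR adjusted p = 0.111) and Dbp (0.37, edgeR adjusted p = 0.127) were not called and Clock was (0.72, edgeR adjusted p = 0.000416). In C6KO alone they stood at 1.85, 1.55 and 1.43 and were called, as was Per1 (0.64, edgeR adjusted p = 0.00495). The tests of this difference between genotypes, below, called none of them. Arntl was not called (-0.81, interval -1.70 to 0.09, edgeR adjusted p = 0.0989), but was without BAT C6KO 1 (-1.14, edgeR adjusted p = 0.0305) and without the 3 BAT libraries rich in muscle RNA (-1.49, edgeR adjusted p = 0.0450). Without those 3 libraries 8 members were called, the 7 named and Arntl, but C6KO 2, the library with the least Arntl and the most Per2 and Dbp of all 18, is then the lone C6KO library of BAT. The part of muscle RNA in these values was not tested. The 3 depot comparisons share libraries pairwise and are not independent of each other.

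**Figure D4:**
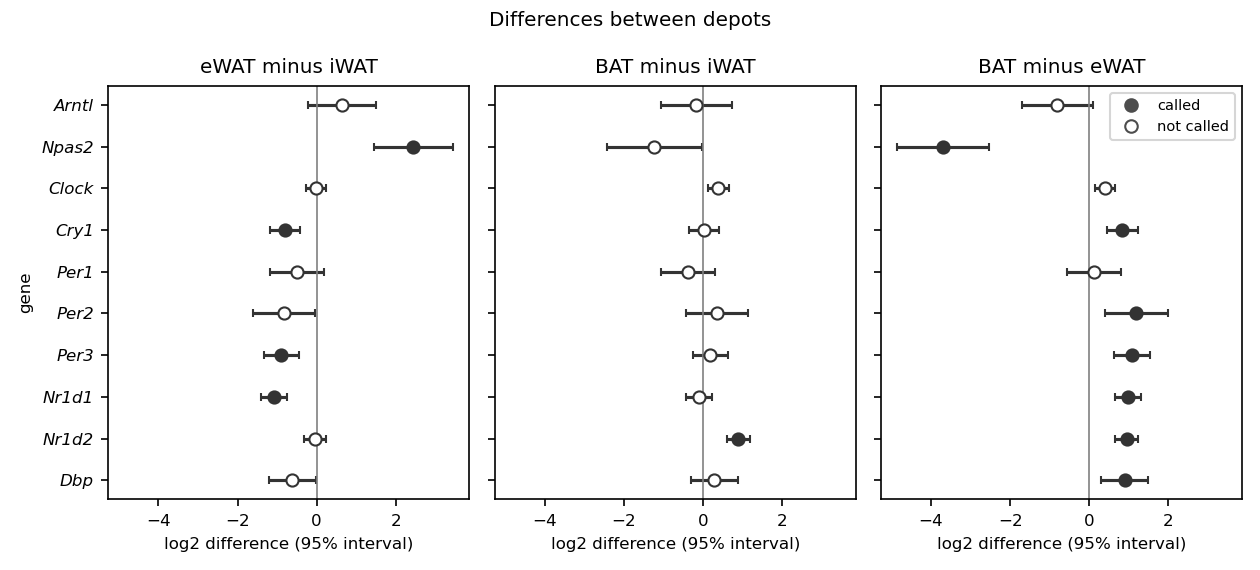
Log2 differences between depots (x axis), averaged over WT and C6KO, for the 10 clock genes (y axis), with 95% intervals from the edgeR fit of 18 libraries. Filled points were called. Npas2 stands apart at 2.45 for eWAT minus iWAT and -3.69 for BAT minus eWAT, and Nr1d2 alone is called for BAT minus iWAT. Npas2 had at most 5 counts in any BAT library.

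The depots also differ in cell make-up. Summed CPM of 7 macrophage markers were 3203 to 6246 in eWAT, 361 to 1668 in iWAT and 209 to 815 in BAT, all 7 markers being called between each pair of depots. The mesothelial markers Msln, Upk3b and Wt1 summed to 32.1 to 135 CPM in eWAT and at most 0.949 CPM elsewhere. Adipocyte markers were all called lower in eWAT than in iWAT, 6 of 6. The part of these in the clock gene differences was not tested.

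Between C6KO and WT no clock gene was called in any depot. The same test called Casp6 itself in eWAT only, so it can miss a loss of that size in iWAT and BAT. In iWAT 0 of 10 passed, where 0.0275% of genes were called, and 0 of 10 had an unadjusted p below 0.05, where 16.5% of genes did; DESeq2 called 0 as well. The estimates ran from -0.99 for Npas2 (interval -2.72 to 0.73) to 0.43 for Per2 (-0.57 to 1.44), with a median of 0.09 beside 0.03 for all genes. Arntl was level on average, at 6.34 ± 4.50 CPM in C6KO and 6.56 ± 3.68 in WT (SD, n = 3), but its interval of -1.50 to 1.42 is wide in both directions. Intervals stayed within a 1.5-fold difference for Clock (0.07, -0.25 to 0.40), Per1 (-0.09, -0.45 to 0.28) and Nr1d2 (0.16, -0.22 to 0.54). That of Nr1d1 (0.31, -0.13 to 0.75) reached beyond it. No member had WT and C6KO libraries that did not overlap, where 23.1% of genes had. Npas2 (-0.37 without WT 1, -0.61 without C6KO 2, -2.14 without C6KO 1), Per2 (0.06 without C6KO 2, 0.13 without WT 1, 0.68 without C6KO 1, 0.70 without WT 3) and Nr1d1 (0.10 without C6KO 2) moved with single libraries. The macrophage markers were at 1496 to 1668 CPM in WT and 361 to 1116 CPM in C6KO iWAT, and the adipocyte markers at 21547 to 24953 and 28320 to 29886 CPM. Their part was not tested.

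In eWAT the smallest p-values belonged to Per1, Nr1d2 and Cry1. Per1 had 149, 147 and 107 CPM in WT and 86.9, 81.7 and 101 CPM in C6KO, so that the groups did not overlap, and its log2 difference was -0.57 ± 0.15 (edgeR adjusted p = 0.0849). DESeq2 gave -0.56 with an adjusted p of 0.0139, just short of the 1.5-fold minimum. Nr1d2 had 120, 94.5 and 116 CPM in WT and 80.9, 84.2 and 85.2 CPM in C6KO (-0.39 ± 0.11, edgeR adjusted p = 0.108). Cry1 had 7.25, 6.44 and 8.71 CPM in WT and 12.4, 9.31 and 9.79 CPM in C6KO (0.49 ± 0.19, edgeR adjusted p = 0.219). These 3 of 10 had an unadjusted p below 0.05, where 17.6% of genes did, and did not overlap, where 23.2% did. None was called by edgeR, where 0.746% of genes were, nor by DESeq2. The median of the 10 was -0.07, beside -0.01 for all genes.

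The rest of the eWAT comparison was uneven. Dbp stood at 64.9 ± 26.5 CPM in C6KO and 99.9 ± 22.3 in WT (-0.62, interval -1.48 to 0.24), with the low value of 34.5 CPM in C6KO 1, and Per3 stood at -0.36 (-0.90 to 0.18). Without C6KO 1 they were at -0.31 and -0.16. Per3 was also at -0.18 without WT 3 and at -0.55 without C6KO 2. Arntl (0.13, -0.65 to 0.90), Npas2 (-0.10, -0.76 to 0.57) and Per2 (-0.05, -0.60 to 0.51) had estimates near 0. Their intervals reached beyond a 1.5-fold difference. Nr1d1 (0.13) also lay near 0, and its interval was narrow, -0.11 to 0.36. The macrophage markers moved beside these, at 4995 to 6246 CPM in WT and 3203 to 4200 CPM in C6KO, and so did the adipocyte markers, at 8519 to 10326 and 11630 to 15357 CPM. Their part in the clock gene values was not tested.

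In BAT the largest estimates were those of Per2 and Arntl, with wide intervals. Per2 stood at 143 ± 90.9 CPM in C6KO and 58.0 ± 36.9 in WT (1.31, interval -0.49 to 3.10, edgeR adjusted p = 0.512). Arntl stood at 3.95 ± 2.73 and 8.47 ± 2.81 CPM (-1.10, -2.27 to 0.08, edgeR adjusted p = 0.408). Per3 (0.60, -0.06 to 1.26) and Dbp (0.47, -0.10 to 1.04) had higher means in C6KO, with overlapping libraries, and Per1 had the widest interval of the 9 genes tested (0.51, -1.55 to 2.56). Single libraries moved these estimates. Without C6KO 2 Per2 was at 0.68, Arntl at -0.67 and Dbp at 0.15. Without WT 3 Per2 was at 1.99, Per3 at 1.0 and Per1 at 1.14, without WT 1 Per1 was at 0.04 and Per3 at 0.40, and without C6KO 1 Arntl was at -1.73. Nr1d1 (0.06, -0.54 to 0.66), Nr1d2 (0.07, -0.43 to 0.57) and Cry1 (0.21, -0.45 to 0.86) had estimates nearer 0. The intervals of Nr1d1 and Cry1 still reached beyond a 1.5-fold difference. Nr1d1 stood at -0.18 without C6KO 2 and at 0.31 without C6KO 3. Cry1 stood at 0.50 without C6KO 1 and at 0.03 without C6KO 3.

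Clock was the 1 member of BAT whose groups did not overlap, with 123, 95.1 and 99.1 CPM in WT and 91.4, 80.0 and 64.4 CPM in C6KO (-0.41 ± 0.18, edgeR adjusted p = 0.353). Groups did not overlap for 19.8% of genes. Npas2 had too few reads to be tested, so 9 members were tested and 0 were called, where 1.24% of genes were. Clock was the 1 with an unadjusted p below 0.05, where 13.2% of genes had that, and DESeq2 called 0. The median of the 9 was 0.21, beside -0.03 for all genes. Without the 3 libraries rich in muscle RNA 0 were called, and Per2 stood at 1.92 and Arntl at -2.41, with C6KO 2 the lone C6KO library. Macrophage markers stood at 602 to 815 CPM in WT and 209 to 342 CPM in C6KO, and immediate early genes at 208 to 626 and 87.0 to 375 CPM. Their part was not tested.

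**Figure D5:**
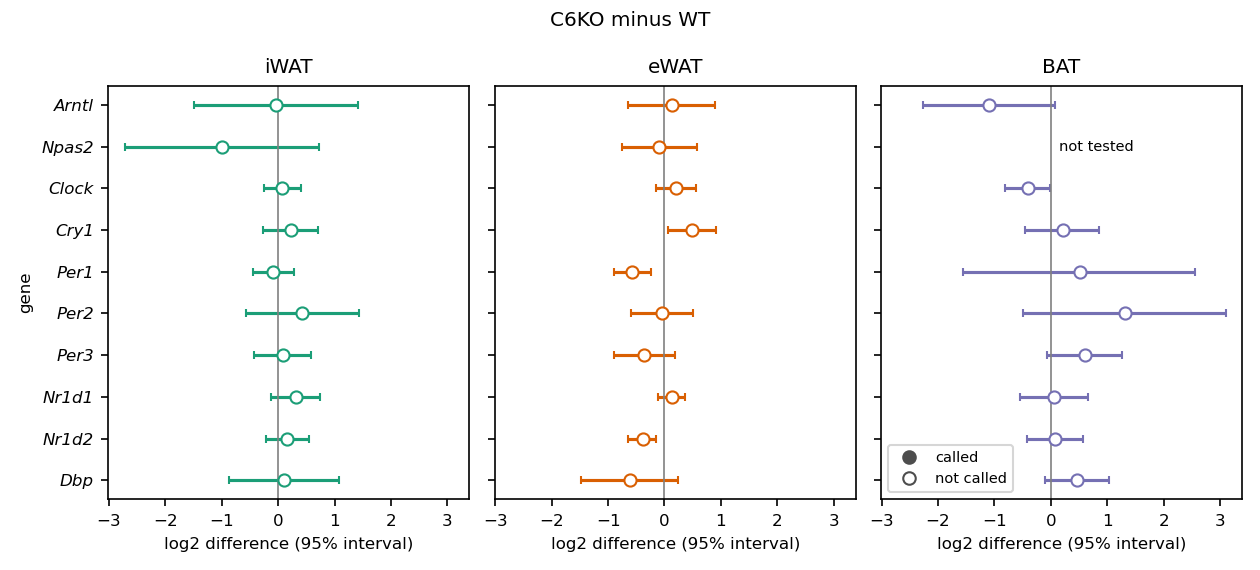
Log2 differences C6KO minus WT (x axis) for the 10 clock genes (y axis) in iWAT, eWAT and BAT, with 95% intervals from an edgeR fit per depot of 3 against 3 libraries. No point is filled, since none was called, and Npas2 was not tested in BAT. The intervals of Per1, Nr1d2 and Cry1 in eWAT and of Clock in BAT exclude 0 before adjustment.

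The effect of the knockout did not differ detectably between depots for any clock gene. The interaction terms of the fit of all 18 libraries called 0 of 10 for eWAT against iWAT, BAT against iWAT and BAT against eWAT, where 0.0%, 0.183% and 0.536% of 15866 genes were called. The 10 include Npas2, which had 0 to 5 counts in BAT libraries and was too scarce to be tested between genotypes there. Its 2 terms with BAT therefore say little about the knockout. Unadjusted p-values below 0.05 were found for 0, 0 and 2 members, where 5.48%, 9.93% and 11.2% of genes had them, and DESeq2 called 0 members in each. The 2 were Clock (-0.62 ± 0.24, edgeR adjusted p = 0.325) and Per3 (0.96 ± 0.41, edgeR adjusted p = 0.391), both for BAT against eWAT. Intervals were wide for several genes: Npas2 stood at -0.22 (-2.53 to 2.09), Per1 at 1.08 (-0.29 to 2.46), Per2 at 1.35 (-0.24 to 2.94), Arntl at -1.24 (-3.03 to 0.55) and Dbp at 1.08 (-0.11 to 2.27) for BAT against eWAT.

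The wider clock loop was read from 17 further genes, among them Cry2, Arntl2, the D-box factors Tef, Hlf and Nfil3, the repressors Ciart, Bhlhe40 and Bhlhe41, and the casein kinases and ubiquitin ligase parts that set repressor stability. By edgeR, C6KO against WT called 0 of 17 in iWAT, 0 of 16 tested in eWAT and 0 of 17 in BAT. Of all genes, 0.0275%, 0.746% and 1.24% were called. An unadjusted p below 0.05 was found for 1, 2 and 2 of the list, beside 16.5%, 17.6% and 13.2% of all genes. DESeq2 called 1, 0 and 0 of the list, beside 666 of 19011, 619 of 19608 and 547 of 18944 genes. Cry2, the paralog of Cry1, is named here after its values were seen, at 54.8 ± 2.73 CPM in C6KO and 38.5 ± 5.02 in WT eWAT (0.51 ± 0.12, edgeR adjusted p = 0.0655). It was not called, and its genotypes did not overlap there, as for 23.2% of all genes. Between depots the list moved more. BAT against iWAT had 8 higher and 1 lower, BAT against eWAT 9 higher and 0 lower, and eWAT against iWAT 1 higher and 5 lower, where 43.8%, 54.4% and 31.1% of all genes were called. The medians were 0.58, 0.64 and -0.45, beside -0.02, 0.01 and -0.03 for all genes.

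Several of these differed widely between depots. Rorb, a receptor that can bind the same element as REV-ERBs, had 8.65 CPM on average in BAT, 0.717 in iWAT and 0.172 in eWAT, and was higher in BAT than in iWAT by 3.58 ± 0.29 (edgeR adjusted p = 1.25e-08). Nfil3, which competes with Dbp at D-boxes, had 27.2 CPM in BAT, 3.85 in iWAT and 6.43 in eWAT (2.84 ± 0.26, edgeR adjusted p = 7.64e-08), and Hlf, which acts with Dbp, had 116, 23.5 and 17.4 CPM (2.30 ± 0.26, edgeR adjusted p = 1.80e-06). Bhlhe40 (1.89), Ciart (1.81), Arntl2 (0.80) and Tef (0.79) were also higher in BAT than in iWAT, and Fbxl21 (-1.08) was lower. Fbxl21 rests on few reads, at 0.256 to 1.82 CPM in BAT and 1.63 to 3.64 CPM in iWAT, with overlapping libraries. Ciart ran widely within BAT, from 5.84 to 36.0 CPM. Cry2 was lower in eWAT than in iWAT (log2 difference -1.08 ± 0.12, edgeR adjusted p = 1.35e-06) with no overlap, as for 26.0% of all genes.

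Of 8 genes known as outputs of the clock, 0 were called between C6KO and WT by edgeR in any depot. An unadjusted p below 0.05 was found for 2, 2 and 0 in iWAT, eWAT and BAT, where 16.5%, 17.6% and 13.2% of all genes had that. DESeq2 called 2, 0 and 0 of the 8, beside 666 of 19011, 619 of 19608 and 547 of 18944 genes. Between BAT and eWAT all 8 were called, where 54.4% of all genes were: Usp2 (3.79), Pdk4 (3.41), Nampt (2.20), Lpin1 (1.29), Por (0.91) and Noct (0.69) were higher in BAT, and Wee1 (-0.97) and Tsc22d3 (-0.74) lower. BAT against iWAT, where 43.8% of all genes were called, had Usp2 (3.04), Pdk4 (2.87), Nampt (2.11) and Noct (0.64) higher and Tsc22d3 (-0.70) lower. eWAT against iWAT, where 31.1% were called, had Wee1 (0.76) higher and Por (-1.13), Lpin1 (-1.11) and Usp2 (-0.75) lower. Several of these also serve brown fat metabolism, Pdk4 as a brake on glucose oxidation and Nampt in making NAD.

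Cues that can set or mask clock genes were read from 2 lists. Of 9 glucocorticoid-responsive genes, Zbtb16 was higher in eWAT of C6KO (131 against 74.6 CPM, 0.81 ± 0.15, edgeR adjusted p = 0.0495). Its genotypes did not overlap, as for 23.2% of all genes. Without eWAT WT 1, 0 genes were called higher in C6KO eWAT by edgeR, so the call of Zbtb16 was lost without that library. No other member was called between genotypes by edgeR in any depot, with 2, 2 and 1 at an unadjusted p below 0.05 in iWAT, eWAT and BAT and 0, 2 and 0 called by DESeq2. Over all genes 0.746% were called between genotypes in eWAT by edgeR, and 16.5%, 17.6% and 13.2% had such an unadjusted p in the 3 depots. DESeq2 called 666 of 19011, 619 of 19608 and 547 of 18944 genes there. Between depots 4, 4 and 5 of the 9 were called, for eWAT against iWAT, BAT against iWAT and BAT against eWAT, near the 31.1%, 43.8% and 54.4% of all genes. The sum of the 9 ran from 983 to 1877 CPM over all libraries. Of 8 immediate early genes, which rise within minutes of stress or handling, 0 were called between genotypes by edgeR in any depot. An unadjusted p below 0.05 was found for 2, 3 and 2 in iWAT, eWAT and BAT, beside 16.5%, 17.6% and 13.2% of all genes. DESeq2 called 2, 1 and 2 of the 8, beside 666 of 19011, 619 of 19608 and 547 of 18944 genes. By DESeq2 the share called was thus above that of all genes in each depot, unlike by edgeR. Between depots 3, 3 and 5 of the 8 were called, in the order given above, beside 31.1%, 43.8% and 54.4% of all genes. Their sums were 172 to 436 CPM in iWAT, 482 to 695 CPM in eWAT and 87.0 to 626 CPM in BAT.

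The genes most like Dbp and Arntl within groups were sought among 10424 genes whose mean CPM reached 5 in each of the depots, by Pearson r of deviations over the 18 libraries. For Dbp the first was Sphk2 (r = 0.97), which overlaps Dbp on the opposite strand of chromosome 7. Whether the counting used strand is not given in the sources used here, so the reads of these 2 genes may be shared. Next came Slc5a6 (0.86), Zfand1 (0.85), Mgme1 (0.84) and Tef (0.84), the last from the list above. For Arntl they were B3gntl1 (0.85), Clpx (0.84), Cdkn2aip (0.84), Rab33b (0.83) and Arhgap28 (0.82), none of which is a clock gene known to the lists used here.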

How the data were processed

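Poly(A) RNA of iWAT, eWAT and BAT was sequenced on an Illumina NextSeq instrument. The authors aligned reads with STAR at default settings to mm10 and counted them over exons with HOMER, condensed to 1 transcript per gene; the deposited values are raw counts, whole and not normalised, in 1 table per depot. The submitters' processing notes name HOMER, DESeq2 and mm10, and versions and the strand used in counting are not given in the sources used here. The transcript kept for a gene differs between tables for 2619 of 25124 genes, and all value columns belong to a sample. The labels call the libraries biological replicates but do not tie them to single mice.

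Counts were analysed with edgeR 4.0.16 and limma 3.58.1 in R 4.3.3 (filterByExpr, TMM scaling, robust quasi-likelihood fit), tested on simulated data. C6KO and WT were compared within each depot, 3 libraries against 3. Depots and interactions came from 1 fit of 18 libraries over 15866 genes, which were counted in separate tables. Calls took a Benjamini-Hochberg adjusted p below 0.05 over all genes tested and a 1.5-fold change, and log2 CPM used a prior count of 1. DESeq2 1.42.0, other filters and scalings, a replicate block, single genotypes and leaving out each library were alternatives. Promoter motifs and figures were made with Python 3.11.15 and matplotlib 3.10.9. Genes were named by rule: the 10 members, Casp6, called genes of the lists for the clock loop, outputs, glucocorticoid response and immediate early genes, and the 5 genes most like Dbp and Arntl. The members and lists were chosen with earlier results of these data known. The values of 1 gene of the clock loop list are not reported here, though it stays in the list's counts.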

Additional observations from a re-analysis of the deposited data

How the results depend on the processing

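No clock gene was called between C6KO and WT, or in the interaction terms, under any alternative run, with or without any single library, and no estimate of a called gene changed sign. Between depots, eWAT against iWAT had 4 calls, 4 to 5 when each library was left out, 3 to 5 under the other alternatives and 7 with a replicate block, which added Arntl, Per2 and Dbp. BAT against iWAT had 1 call in the main test and 2 with DESeq2, with the block, without a fold change minimum and without the 3 BAT libraries rich in muscle RNA (chosen after seeing the data), 3 in WT alone (with Clock and Npas2), and 1 to 2 when each library was left out. BAT against eWAT had 7, 7 to 8 when each library was left out, 5 in WT alone and 8 with the block, which added Arntl. The contrast of the 10 genes in WT eWAT, 0.75, was 1.15 without Cry1. The cause of these shifts was not tested. Counts over all genes between genotypes depended far more on the tool than those of the members. In iWAT 4 genes were called by edgeR, 666 by DESeq2, 62 with the block, 366 in the fit of 18 libraries, 32 without a filter, 2 with at least 10 counts in every library, and 3 to 1278 with a library left out, the most without C6KO 3. In eWAT 111 were called, against 619, 414, 4 in the fit of 18 and 321 without a filter, and 2 to 347 with a library left out. In BAT 168 were called, against 547 by DESeq2, 525 in the fit of 18, 103 without the libraries rich in muscle RNA and 28 to 178 with a library left out. Interaction terms called 0, 29 and 85 genes by edgeR and 14, 164 and 342 by DESeq2. On pairing, same-numbered libraries of different depots of a genotype correlated at a mean r of 0.09 over all genes, with 7 of 18 pairs over 0.1, against -0.05 for other numbers, and 11 of 18 correlated best with their own number. Of the pairs with other numbers, 6 of 36 were over 0.1. Over the clock genes the means were 0.48 and -0.22, with 15 of 18 and 13 of 36 pairs above 0. Deviations of 3 replicates sum to 0, which tends to give the 2 means opposite signs but does not set which is positive. Whether a number marks a mouse is not given and was not tested. The block was read as a shared number, not a shared mouse. Depth limits Npas2 in BAT most, with at most 5 counts a library.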
